A study of Mus musculus with 18 samples.

Results

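The genes described here are 46 genes of the kinetochore and the spindle checkpoint, out of 51912 genes in the table. They were taken by a list of symbols and not by a rule on measured values, though with earlier results of these data known. The list holds loading factors of the centromeric histone, the inner and outer kinetochore, the fibrous corona, the SKA complex, the chromosomal passenger complex, the shugoshins and the spindle checkpoint. All 46 passed the filter on low counts, and the least abundant of them averaged 74.2 counts per library. They were measured by RNA-seq in primary mouse embryonic fibroblasts (MEFs), which are fibroblast-like cells grown directly from embryos, here C57BL/6 embryos from crosses of Pole4+/- Trp53+/- animals. Cells were at passage 1, in 5% oxygen and 15% serum. Pole4 encodes a small subunit of DNA polymerase epsilon, and Trp53 encodes the tumor suppressor p53; both alleles were lost in the whole animal rather than in a chosen cell type. Cells with 2 copies (Trp53+/+), 1 copy (Trp53+/-) or no copy (Trp53-/-) of Trp53 were taken with Pole4 intact (Pole4+/+) and with both its alleles lost (Pole4-/-), which makes 6 genotypes of 3 libraries. The labels do not say whether the libraries of a genotype came from separate embryos, so the p-values measure the spread between these samples.

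A kinetochore is the protein structure built on each centromere that binds spindle microtubules in mitosis. Its base is chromatin that holds the histone variant CENP-A, on which the inner kinetochore and then the microtubule-binding outer kinetochore assemble. Kinetochores without microtubules recruit the spindle checkpoint proteins, which hold back the anaphase-promoting complex until every chromosome is attached. Most of these genes are transcribed mainly from late S phase to mitosis, so their RNA in a culture follows how many cells are in cycle; p53 is known to lower many of them through the CDK inhibitor p21, encoded by Cdkn1a. In bulk RNA, fewer cells in a phase of the cycle and less RNA per cell cannot be told apart.

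The libraries held between 9535971 and 35319918 counts, and the share of ribosomal RNA genes varied from 0.968% to 42.5%. Trp53 and Cdkn1a followed the labels: Trp53 ran from 86.6 to 96.1 CPM (counts per library total scaled to 1e+06, with TMM factors) in Pole4+/+ Trp53+/+ and from 8.65 to 12.1 CPM in the 6 Trp53-/- libraries, while Cdkn1a did not exceed 12.03 CPM in any of these 6. Pole4 was still counted at 9.26 to 11.99 CPM in the 9 Pole4-/- libraries, against 14.2 to 26.4 CPM in the other 9, so the allele lowers but does not remove its counts. Collagen genes, Vim and Fn1 were high in every library, the fibroblast markers Dcn and Lum reached at most 15.2 and 13.1 CPM in all but 1 library, and the erythroid markers together reached at most 0.566 CPM. All libraries of Pole4+/+ Trp53+/+ and Pole4+/+ Trp53-/- were read as female and all of Pole4+/+ Trp53+/- as male, with the other genotypes mixed. The libraries of each Pole4-/- genotype thus came from more than 1 embryo. For each Pole4+/+ genotype, of a single sex, this remains unknown. The first Pole4+/+ Trp53-/- library stands apart from the other two: its members summed to 1394 CPM against 1960 and 2151 CPM, within the range of the Pole4+/+ Trp53+/+ libraries, although its Cdkn1a was 11.8 CPM. Several fibroblast markers were higher in it than in the other two: Dcn was 35.01 against 3.53 and 3.23 CPM, Lum 41.7 against 3.03 and 3.72 CPM, Pdgfra 254 against 72.5 and 74.0 CPM and Col3a1 2033 against 746 and 783 CPM, whereas Vim was lower (2113 against 2728 and 2707 CPM) and Thy1 and Pdgfrb differed little. It also held 1.03 to 2.76 CPM of the Y-linked genes Ddx3y, Eif2s3y, Kdm5d and Uty, where no other female library exceeded 0.181 CPM and male libraries had at least 85.3 CPM of Ddx3y. The part of these differences in its member levels was not tested. It was kept, and the counts that turn on it are given with and without it.

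Across the series the members moved together. With Pole4 intact, their summed level was 1158 to 1439 CPM at 2 copies of Trp53, 1368 to 1490 CPM at 1 copy and 1394 to 2151 CPM at none. In the Pole4-/- background it was 872 to 887 CPM with intact Trp53, 1120 to 1381 CPM with 1 allele and 1943 to 2322 CPM with none. Of the 46 members, 43 had their lowest mean in Pole4-/- Trp53+/+ and 43 their highest in Pole4-/- Trp53-/-. The exceptions at the low end were Cenpc1, Cenpt and Zwint, and at the high end Hjurp and Cenpm, highest in Pole4+/+ Trp53-/-, and Cenpt, highest in Pole4+/+ Trp53+/-. The map of all members by library shows the Pole4-/- Trp53+/+ columns as the low end for nearly every row.

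**Figure D1:**
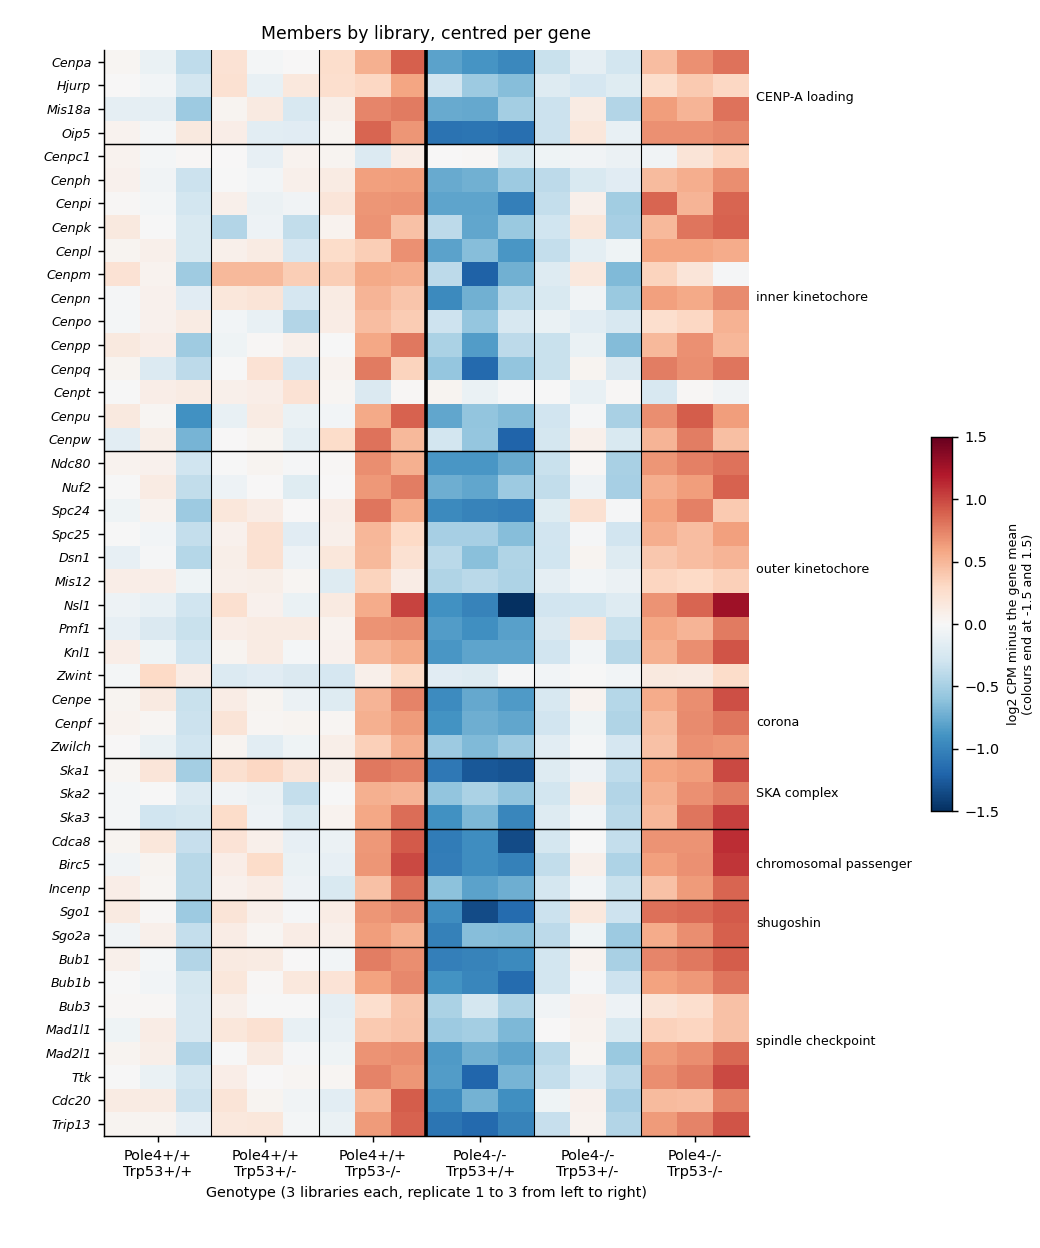
Level of each of the 46 members (rows, grouped by role) in each of 18 libraries (columns, 3 per genotype), as log2 CPM minus the mean of that gene over all libraries; blue is below and red above the mean of the gene. The Pole4-/- Trp53+/+ columns hold the lowest genotype mean of 43 members, the Pole4-/- Trp53-/- columns are red for most, and Cenpc1, Cenpt and Zwint stay near their mean in every column.

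The first question is what the loss of Trp53 did to these genes in cells without Pole4. Of the 46 members, 44 were higher in Pole4-/- Trp53-/- than in Pole4-/- Trp53+/+ and none was lower, with a median log2 fold change of 1.43, against a median of -0.02 over the 15710 genes tested. Over all genes tested, 21.8% were called higher and 20.8% lower (Benjamini-Hochberg adjusted p under 0.05). No overlap between the 2 sets of libraries was seen for 44 members, where 28.5% of all genes were higher without overlap. The members not called were Cenpc1 and Cenpt. The members were chosen by function and not by this contrast, but with results of these data known.

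Among the loading factors, all 4 rose. Cenpa, the centromeric histone itself (GRCm38 chr5:30666777-30674830, plus strand), measured 20.03, 18.9 and 17.9 CPM where Trp53 was intact and 48.0, 56.0 and 61.5 CPM where it was absent. The groups lay far apart, with a log2 fold change of 1.53 ± 0.15 (SE) and an adjusted p of 4.93e-06. Oip5, a subunit of the Mis18 complex that marks centromeres for loading, was the most responsive of the 4: its 3 libraries held 2.32, 2.34 and 2.27 CPM with Trp53 and 8.03, 8.01 and 8.22 CPM without it (log2 fold change 1.80 ± 0.20, adjusted p 1.30e-05). Of the length of its exons, 9.67% lies opposite exons of Nusap1, another mitotic gene, whose reads the unstranded kit cannot set apart. Hjurp, the chaperone of CENP-A, changed least, from 89.3, 74.3 and 69.9 CPM to 130, 143 and 135 CPM (log2 fold change 0.80 ± 0.12, adjusted p 0.000101).

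Of the 13 inner kinetochore genes, whose products form the constitutive network on CENP-A chromatin, 11 rose, with a median log2 fold change of 1.26. Cenpi, a subunit of this network, rose most, from 10.6, 10.5 and 8.97 CPM to 33.4, 26.0 and 33.2 CPM (log2 fold change 1.61 ± 0.17, adjusted p 8.61e-06). Cenpt (GRCm38 chr8:105844673-105853278, minus strand), which links this network to the outer kinetochore, gave 19.9, 18.03 and 19.1 CPM with Trp53 and 16.3, 19.5 and 18.6 CPM without it. Its libraries overlapped, at a log2 fold change of -0.07 ± 0.09 and an adjusted p of 0.598. Cenpc1, which encodes CENP-C, the scaffold that binds CENP-A nucleosomes directly, gave 32.3, 32.5 and 27.4 CPM against 31.0, 36.6 and 40.0 CPM, which also overlapped (log2 fold change 0.22 ± 0.10, adjusted p 0.107). Both uncalled members belong to the inner kinetochore, and both had steady levels over all 6 genotypes: genotype means ran from 18.2 to 21.2 CPM for Cenpt and from 30.6 to 35.9 CPM for Cenpc1. Cenpu and Cenpo, which were called, share 26.7% and 22.5% of their exon length with genes on the other strand.

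All 10 outer kinetochore genes rose, with a median log2 fold change of 1.43 and the widest spread of any role group. Nsl1, a subunit of the Mis12 complex, had the largest log2 fold change of the 46 members: its libraries held 2.92, 2.75 and 1.87 CPM with Trp53 and 8.76, 10.1 and 13.3 CPM without it (2.05 ± 0.23, adjusted p 1.30e-05). Knl1 (GRCm38 chr2:119047119-119105501, plus strand), the scaffold to which checkpoint proteins bind, went from 29.99, 31.6 and 31.6 CPM to 79.3, 88.5 and 106 CPM (log2 fold change 1.55 ± 0.14, adjusted p 3.09e-06). Zwint (GRCm38 chr10:72654845-72674964, plus strand), which binds Knl1 and recruits the corona, was the weakest called member, at 80.2, 79.5 and 89.3 CPM against 99.9, 99.3 and 110 CPM. Its log2 fold change was 0.31 ± 0.11 with an adjusted p of 0.0323, and the call was lost without the first or second Pole4-/- Trp53+/+ library or without the first or the third of Pole4-/- Trp53-/- (log2 fold changes of 0.27 to 0.34). The difference between Knl1 and Zwint was not tested.

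In the corona, the outermost layer that captures microtubules, all 3 genes rose. Cenpe, a kinesin motor that moves chromosomes to the spindle equator, went from 64.3, 72.5 and 68.5 CPM to 182, 201 and 242 CPM (log2 fold change 1.61 ± 0.20, adjusted p 2.79e-05). Zwilch, part of the RZZ complex that builds the corona, went from 15.0, 13.8 and 15.0 CPM to 29.6, 35.1 and 34.7 CPM (1.18 ± 0.12, adjusted p 7.64e-06). The SKA complex, which keeps kinetochores on the ends of shrinking microtubules, rose in all 3 subunits. Ska1 went from 2.96, 2.59 and 2.54 CPM to 9.39, 9.63 and 12.4 CPM (1.94 ± 0.22, adjusted p 1.32e-05). Ska2, the least changed, went from 19.3, 20.9 and 19.3 CPM to 42.1, 46.6 and 49.7 CPM (1.22 ± 0.15, adjusted p 2.89e-05).

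The 3 chromosomal passenger genes, whose products correct wrong attachments, also rose. Cdca8 (GRCm38 chr4:124918465-124939311, minus strand), encoding borealin, went from 14.3, 15.4 and 11.6 CPM to 47.2, 47.1 and 63.5 CPM (log2 fold change 1.92 ± 0.22, adjusted p 1.82e-05), and Incenp, the scaffold of the complex, from 31.5, 27.6 and 28.9 CPM to 65.6, 75.2 and 88.0 CPM (1.38 ± 0.21, adjusted p 0.000133). Both shugoshins, guardians of centromeric cohesion, rose as well. Sgo1 (GRCm38 chr17:53674786-53689333, minus strand) went from 11.1, 8.35 and 9.50 CPM to 37.5, 38.2 and 40.0 CPM (1.99 ± 0.20, adjusted p 5.24e-06). Sgo2a went from 19.2, 24.9 and 24.8 CPM to 57.1, 63.0 and 71.9 CPM (1.49 ± 0.17, adjusted p 1.36e-05), with 35% of its exon length opposite Kctd18.

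All 8 spindle checkpoint genes rose, with a median log2 fold change of 1.60. Trip13 (GRCm38 chr13:73911347-73937784, minus strand), the ATPase that remodels MAD2, was the most responsive, from 9.55, 9.10 and 10.2 CPM to 31.9, 34.3 and 39.4 CPM (1.88 ± 0.20, adjusted p 9.63e-06). Bub1b (GRCm38 chr2:118598211-118641591, plus strand), which encodes the checkpoint inhibitor BubR1, went from 26.6, 25.2 and 22.4 CPM to 75.3, 77.8 and 86.4 CPM (1.69 ± 0.13, adjusted p 4.17e-07). Bub3, the partner that docks BUB1 and BubR1 on Knl1, moved least, from 49.2, 56.9 and 49.8 CPM to 78.0, 81.9 and 92.8 CPM (0.70 ± 0.12, adjusted p 0.000406). Its groups still did not overlap.

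Cycling and cell type markers moved with these genes. The cycling markers Mki67, Top2a, Cdk1 and Ccnb1 were all called higher in the same comparison, at log2 fold changes of 1.65, 1.68, 1.64 and 1.79. They summed to 439 to 460 CPM with Trp53 and 1306 to 1626 CPM without it. Members per unit of these 4 genes, the ratio of the summed CPM, was 1.89 to 2.02 in the first and 1.43 to 1.51 in the second genotype, without overlap. Of the 10 fibroblast markers, 8 had a lower mean in Pole4-/- Trp53-/-, where they summed to between 13720 and 16520 CPM against 24890 to 30960 CPM. All 5 epithelial markers had a higher mean there, at sums of 22.04 to 42.0 CPM against 10.5 to 16.7 CPM, with Epcam and Cdh1 near 0 in both. The muscle list summed to 22.5 to 31.4 CPM against 49.0 to 68.0 CPM, although 3 of its 5 genes had a higher mean: Des makes up most of the sum, and Myod1 and Myog stayed at or below 1.45 CPM in every library. The neuron list, mostly Tubb3, summed to 63.0 to 86.8 CPM against 52.2 to 60.6 CPM, with Elavl3 and Snap25 at or below 0.349 CPM in every library. All 4 macrophage markers had a higher mean without Trp53, at overlapping sums of 2.83 to 12.8 CPM against 2.28 to 7.36 CPM. Their part in the result was not tested.

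The same step was smaller in Pole4+/+ cells. There, 12 members were called higher in Trp53-/- than in Trp53+/+ and none lower, with a median log2 fold change of 0.53, where 2.23% of all genes were called higher. A further 27 members had an unadjusted p under 0.05, all in the higher direction. The 12 were Bub1b, Cenpa, Cenph, Cenpi, Dsn1, Hjurp, Mis18a, Pmf1, Ska3, Spc24, Ttk and Zwilch. Each of these was also among the 44 called in Pole4-/- cells, which is 100% of the first list and 27.3% of the second. By role they were 3 of 4 loading factors, 2 of 13 inner and 3 of 10 outer kinetochore genes, 1 of 3 corona genes, 1 of 3 SKA genes, none of the 3 passenger genes or 2 shugoshins, and 2 of 8 checkpoint genes.

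Bub1b had the lowest p of the 12, with 49.2, 48.1 and 41.4 CPM at intact Trp53 and 57.0, 75.5 and 82.0 CPM without it (0.63 ± 0.12, adjusted p 0.00865). Cenpa measured 35.6, 32.5 and 26.9 CPM against 41.8, 50.6 and 64.9 CPM (0.72 ± 0.15, adjusted p 0.00939). Pmf1, a Mis12 complex subunit, went from 15.3, 14.4 and 13.2 CPM to 17.4, 26.6 and 27.1 CPM (0.72 ± 0.15, adjusted p 0.0140). In all 3 genes the first Pole4+/+ Trp53-/- library was the lowest of its group, yet above every wild-type library. The loading factors Mis18a (8.65, 8.63 and 6.53 CPM against 10.1, 15.8 and 16.3 CPM) and Hjurp (109, 105 and 89.4 CPM against 129, 135 and 164 CPM) had log2 fold changes of 0.81 ± 0.19 and 0.49 ± 0.12, with adjusted p of 0.0239 and 0.0241.

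Of the 46 members, 20 did not overlap between these genotypes, where 8.24% of all genes were higher without overlap. Without the first Pole4+/+ Trp53-/- library the number was 43, where 24.2% of all genes did. Cdca8, for example, gave 30.4, 33.1 and 23.2 CPM in Pole4+/+ Trp53+/+ and 27.8, 46.4 and 56.0 CPM in Pole4+/+ Trp53-/-. Without that library 38 members were called instead of 12, at a median log2 fold change of 0.68. Without the third Pole4+/+ Trp53+/+ library, the lowest of its group, none was called, and without any of the other four 2 to 4 were called, at medians of 0.39 to 0.57. DESeq2 called 26 members, at a median of 0.52. Library totals as the scale gave 2 calls at a median of 0.61, and a fit of only these 6 libraries and one of the female libraries gave none, at medians of 0.53 and 0.51. The 4 cycling markers all had a positive log2 fold change with 1 called, and their sums overlapped (833 to 1460 CPM against 653 to 885 CPM). The muscle list, mostly Des, summed to 21.1 to 26.5 CPM against 41.5 to 71.2 CPM, and the neuron list, mostly Tubb3, to 65.6 to 86.5 CPM against 48.8 to 57.7 CPM, both without overlap. The muscle sum fell through Des alone, since the other 4 genes of its list had a higher mean in Trp53-/-. Their part was not tested.

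**Figure D2:**
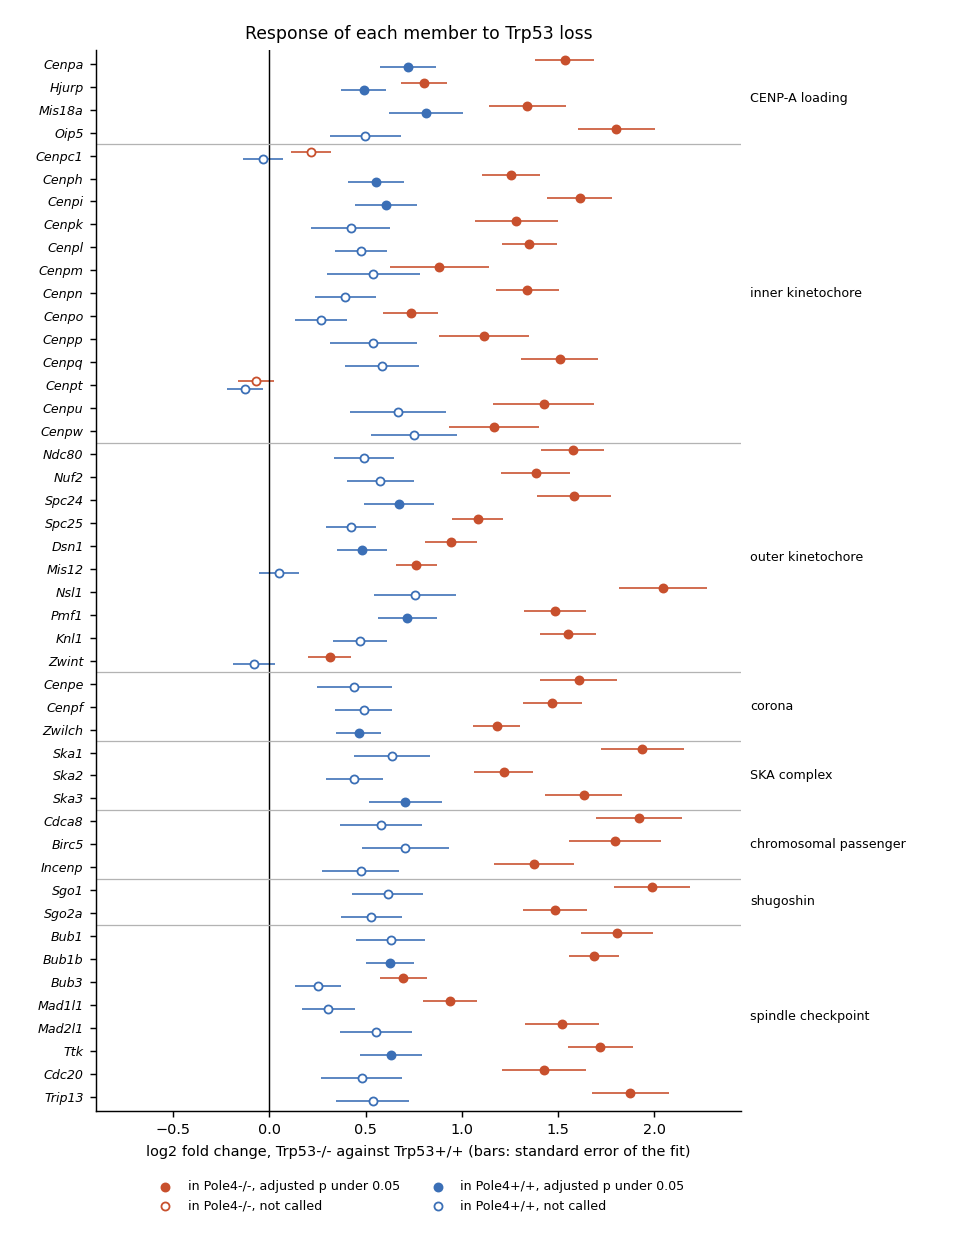
Log2 fold change of each member (rows, grouped by role) for Trp53-/- against Trp53+/+, in Pole4-/- cells (orange) and Pole4+/+ cells (blue); bars are the standard error of the edgeR fit and filled points are called. The orange point lies to the right of the blue point for all 46 members, and only Cenpc1 and Cenpt have an open orange point.

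Whether the step differed between the backgrounds was tested by the interaction of both losses. The log2 response to Trp53 loss was larger in Pole4-/- cells for all 46 members, by a median of 0.89, where the median over all genes tested was -0.02. The interaction was called for 4 members, all higher, where 0.178% of all genes were called higher; 38 members had an unadjusted p under 0.05. The 4 were Bub1b (difference of log2 fold changes 1.06 ± 0.18, adjusted p 0.0313), Knl1 (1.08 ± 0.20, adjusted p 0.0372), Sgo1 (1.37 ± 0.27, adjusted p 0.0486) and Trip13 (1.34 ± 0.27, adjusted p 0.0486). The wild-type side of 3 of them did not pass: in Pole4+/+ cells the log2 fold changes were 0.47 ± 0.14 for Knl1, 0.61 ± 0.19 for Sgo1 and 0.54 ± 0.19 for Trip13. All 4 cycling markers had a positive difference too, at a median of 1.11. Of these markers 1 was called, and all 4 had an unadjusted p under 0.05. Their part was not tested. DESeq2 called the interaction for 33 members and edgeR without the filter on low counts for 21, and 0 members were called with sex as a factor, with library totals as the scale, or in a fit of only the 12 libraries. The medians of these 3 fits were 0.87, 0.75 and 0.88, with a positive difference for 46, 45 and 46 members. When single libraries were left out, the number called was 0 without the first or second library of Pole4+/+ Trp53+/+, the second or the third of Pole4-/- Trp53+/+ or any of Pole4-/- Trp53-/-, and 1 without the first of Pole4-/- Trp53+/+. The medians of these 8 fits ran from 0.80 to 0.92, with a positive difference for all 46 members in each. The number called was 23 without the third of Pole4+/+ Trp53+/+, and 13, 31 and 35 without the first, the second and the third of Pole4+/+ Trp53-/-.

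The Pole4 comparison at intact Trp53 asks whether the members differed between Pole4 genotypes in cells with both Trp53 alleles. There, 25 members were lower in Pole4-/- than in Pole4+/+ cells and none was higher, with a median log2 fold change of -0.66, where 2.7% of all genes were called lower. All 46 had a negative log2 fold change, and 37 did not overlap, where 21.7% of all genes were lower without overlap. These were 2 of 4 loading factors, 4 of 13 inner and 6 of 10 outer kinetochore genes, all 3 corona genes, 1 of 3 SKA genes, 1 of 3 passenger genes, both shugoshins and 6 of 8 checkpoint genes. Bub1b fell from 49.2, 48.1 and 41.4 CPM to 26.6, 25.2 and 22.4 CPM (log2 fold change -0.90 ± 0.13, adjusted p 0.00544). The other 4 members with the lowest p were Oip5, from 5.20, 4.91 and 5.52 CPM to 2.32, 2.34 and 2.27 CPM (-1.17 ± 0.20), Trip13, from 20.9, 21.0 and 18.8 CPM to 9.55, 9.10 and 10.2 CPM (-1.08 ± 0.20), Sgo1, from 23.3, 21.4 and 14.5 CPM to 11.1, 8.35 and 9.50 CPM (-1.03 ± 0.19), and Ska1, from 6.35, 7.08 and 4.39 CPM to 2.96, 2.59 and 2.54 CPM (-1.13 ± 0.22). Their adjusted p ran from 0.0164 to 0.0203, and none of the 5 overlapped. In this comparison Cenpc1, at -0.07 ± 0.10, and Cenpt, at -0.10 ± 0.09, were again the least changed.

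The Pole4-/- Trp53+/+ libraries serve as the reference of the Trp53 comparison as well, so the fall and the rise of a member share their lowest values and are not independent. Cdkn1a was 342 to 363 CPM in these libraries and 232 to 251 CPM in Pole4+/+ Trp53+/+, and the 4 cycling markers were all called lower, at log2 fold changes of -0.78 to -0.89. Of the 10 fibroblast markers 9 had a higher mean in Pole4-/- Trp53+/+, at sums of 24890 to 30960 CPM against 16330 to 22000 CPM. The sexes differed too: all 3 Pole4+/+ Trp53+/+ libraries were female and only 1 of the 3 Pole4-/- Trp53+/+ libraries was. Of the 5 epithelial markers 4 had a lower mean in Pole4-/- Trp53+/+, at sums of 10.5 to 16.7 CPM against 20.8 to 34.4 CPM. All 4 macrophage markers did too, at overlapping sums of 2.28 to 7.36 CPM against 2.24 to 16.1 CPM. Ribosomal RNA genes took 7.11% to 42.5% of counts against 5.81% to 11.2%. The part of the markers and of ribosomal RNA was not tested. With library totals as the scale 39 members were called lower, at a median of -0.93, where the median of all genes was -0.28. With sex as a factor no member was called, at a median log2 fold change of -0.61, and in the female libraries alone none was called, at a median of -0.68. Leaving out 1 library at a time, 1 member was called when the omitted one was the first or second wild-type sample or the second or the third of Pole4-/- Trp53+/+. The number was 6 when it was the first of Pole4-/- Trp53+/+, and the medians of these 5 fits ran from -0.59 to -0.69. It was 31 when it was the third wild-type sample.

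**Figure D3:**
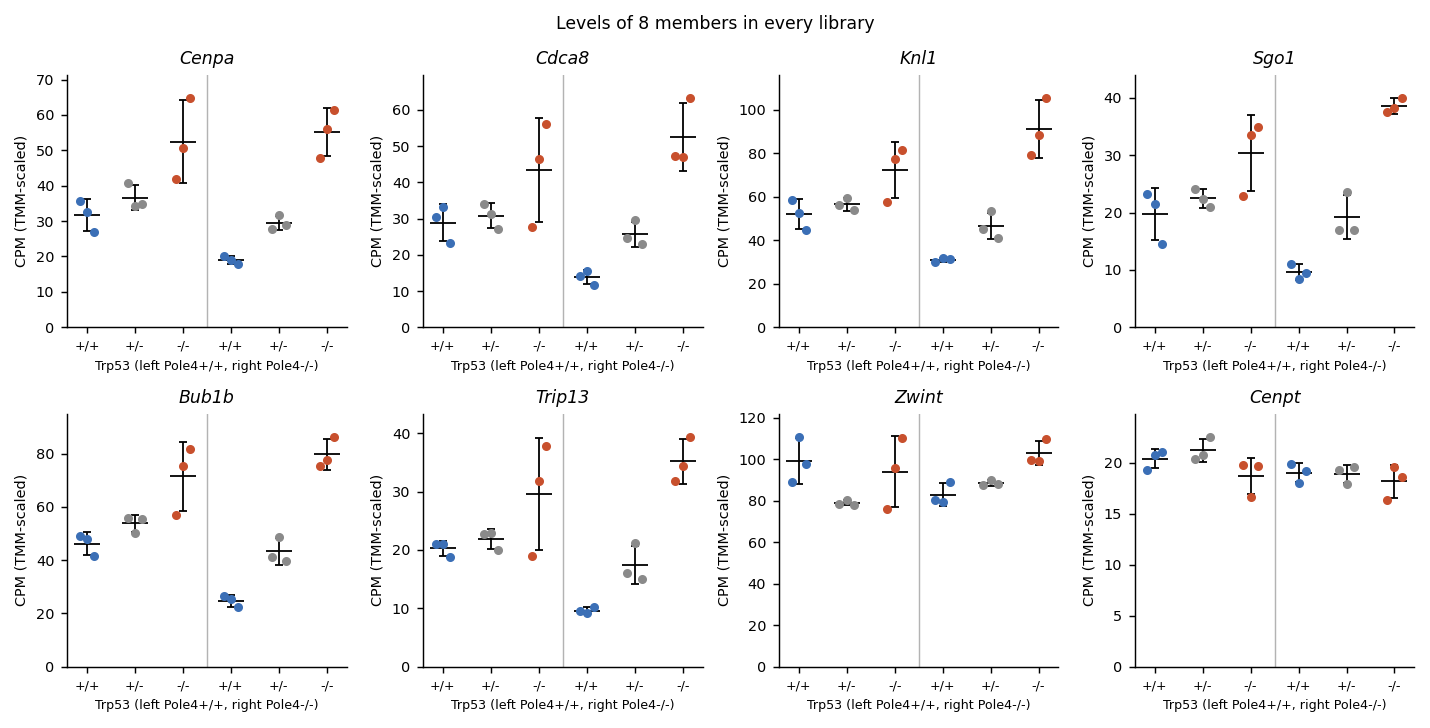
CPM (TMM-scaled) of 8 members in every library by genotype; points are libraries (blue Trp53+/+, grey Trp53+/-, orange Trp53-/-), and black marks are the mean and SD of 3 libraries. In Knl1, Sgo1, Bub1b and Trip13 the Pole4-/- Trp53+/+ points are the lowest and the Pole4-/- Trp53-/- means the highest, while Cenpt stays between 16.3 and 22.5 CPM.

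The same Pole4 comparison was made in cells without Trp53 and with 1 copy. In Trp53-/- cells it called 0 members with edgeR and 0 with DESeq2; 3 had an unadjusted p under 0.05, all higher in Pole4-/-. The median log2 fold change was 0.23, where 0.00637% of all genes, which is 1 gene, were called higher and 0.0% lower. Without the first Pole4+/+ Trp53-/- library the median was 0.04, with 29 members positive and 17 negative, and without the third of Pole4-/- Trp53-/- it was 0.15. Bub1b gave 57.0, 75.5 and 82.0 CPM in Pole4+/+ Trp53-/- and 75.3, 77.8 and 86.4 CPM in Pole4-/- Trp53-/-, which overlapped (0.16 ± 0.12, adjusted p 0.624). The sign of the median depends on the scale: with library totals it was -0.17, where the median of all genes was itself moved to -0.44. Ribosomal RNA genes took 24.7% to 30.04% of counts in Pole4-/- Trp53-/- against 1.82% to 13.1% in Pole4+/+ Trp53-/-, and their part was not tested. In Trp53+/- cells edgeR and DESeq2 also called 0 members, 8 had an unadjusted p under 0.05, all lower in Pole4-/-, and the median was -0.23, or -0.35 without the second Pole4-/- Trp53+/- library; 14 members were lower without overlap, where 6.83% of all genes were, and 0.00637% of all genes were called lower and 0.0% higher.

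The heterozygous cells show whether 1 allele of Trp53 had an effect. In Pole4-/- cells, 18 members were higher in Trp53+/- than in Trp53+/+, none lower, at a median log2 fold change of 0.52, where 2.96% of all genes were called higher. Of the 46, 39 did not overlap, where 21.4% of all genes were higher without overlap. Oip5 rose from 2.32, 2.34 and 2.27 CPM to 4.00, 5.61 and 4.63 CPM (1.03 ± 0.20, adjusted p 0.0166) and Sgo1 from 11.1, 8.35 and 9.50 CPM to 16.9, 23.6 and 17.03 CPM (0.98 ± 0.19, adjusted p 0.0185). The second Pole4-/- Trp53+/- library was the highest of its group in both. Without it no member was called; without the third Pole4-/- Trp53+/+ library none was either, and without the first or second 4 and 1 were, while without the first Pole4-/- Trp53+/- library 11 were. The medians of these fits ran from 0.42 to 0.59. In the female libraries alone none was called, at a median of 0.62, and with sex as a factor 4 were, at a median of 0.50. With library totals as the scale 36 were called, at a median of 0.80, where the median of all genes was 0.29. The cycling markers summed to 618 to 823 CPM against 439 to 460 CPM, with 2 of 4 called higher. All 5 epithelial markers had a higher mean in the heterozygous cells, at sums of 23.2 to 31.6 CPM against 10.5 to 16.7 CPM, and so did all 4 macrophage markers, at overlapping sums of 3.56 to 9.82 CPM against 2.28 to 7.36 CPM. The part of these markers was not tested.

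The second allele took the members further. From Trp53+/- to Trp53-/- in Pole4-/- cells, 40 members rose, at a median log2 fold change of 0.89, where 6.58% of all genes were called higher; the 6 not called were Bub3, Cenpc1, Cenpm, Cenpt, Mad1l1 and Zwint. Bub1b went from 41.1, 48.9 and 39.8 CPM to 75.3, 77.8 and 86.4 CPM (0.88 ± 0.12, adjusted p 0.000611). With library totals as the scale 11 members were called, at a median of 0.57, and in the female libraries none, at a median of 0.82. The 4 cycling markers were all called higher, and the fibroblast markers summed to 13720 to 16520 CPM against 20560 to 26020 CPM. The muscle list, mostly Des, summed to 22.5 to 31.4 CPM against 46.9 to 79.5 CPM, with 4 of its 5 genes at a higher mean, and ribosomal RNA genes took 24.7% to 30.04% of counts against 3.75% to 15.5%. Their part was not tested. For 45 members the heterozygous mean lay between those of the other two genotypes, and members called in the full comparison had covered a median of 38.4% of the log2 step from Trp53+/+ to Trp53-/- with 1 allele gone.

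In Pole4+/+ cells no member was called for the heterozygous step. Between Trp53+/- and Trp53+/+ both tools called 0 members, 2 had an unadjusted p under 0.05 (1 in each direction), the median log2 fold change was 0.12, and 0.496% of all genes were called higher and 0.407% lower. With all libraries 39 members were positive and 7 negative. The median was 0.02 without the third Pole4+/+ Trp53+/+ library, with 26 members positive and 20 negative. It was 0.20 without the first, with 40 positive and 6 negative. For 38 members the heterozygous mean lay between the Trp53+/+ and the Trp53-/- mean. Sgo1 measured 24.1, 22.3 and 20.9 CPM in Pole4+/+ Trp53+/- against 23.3, 21.4 and 14.5 CPM in Pole4+/+ Trp53+/+, and Trip13 measured 22.8, 23.0 and 19.96 CPM against 20.9, 21.0 and 18.8 CPM. Both overlapped. Between Trp53-/- and Trp53+/- the median was 0.42 and both tools again called 0 members, with 30 at an unadjusted p under 0.05, all higher, and 0.07% of all genes called higher and 0.509% lower; without the first Pole4+/+ Trp53-/- library edgeR called 30. With sex as a factor 5 had an unadjusted p under 0.05, at a median of 0.37. The median was 0.28 with the third Pole4+/+ Trp53-/- library left out. All Pole4+/+ Trp53+/- libraries were male and the groups they were compared with all female, so genotype and sex cannot be told apart here. Whether the heterozygous step differed between the Pole4 backgrounds was not tested.

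**Figure D4:**
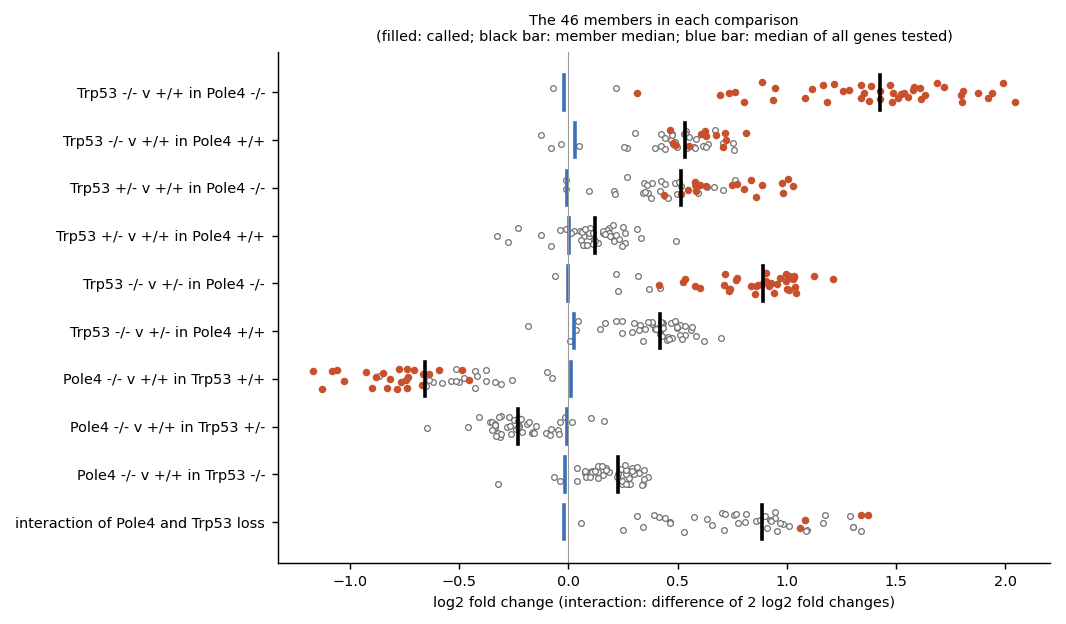
Log2 fold changes of the 46 members (points) in each of 9 comparisons and the interaction (rows); filled points are called, the black bar is the median of the members and the blue bar the median of all genes tested. The medians run from -0.66 for Pole4-/- against Pole4+/+ at intact Trp53 to 1.43 for Trp53-/- against Trp53+/+ in Pole4-/- cells, while the blue bars stay near 0.

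Other genes of the same process were counted from a separate list. Of 20 further kinetochore genes, 16 rose and 1 fell with Trp53 loss in Pole4-/- cells (80.0% and 5.0%, against 21.8% and 20.8% of all genes), at a median log2 fold change of 1.32. The largest rises were those of Spdl1, an adaptor that brings dynein to the corona (1.82 ± 0.23, adjusted p 3.14e-05), and Plk1, a mitotic kinase (1.75 ± 0.22, adjusted p 3.14e-05). At the other end were Ndel1, a dynein regulator that fell by 0.22 on the log2 scale (SE 0.07, adjusted p 0.0272), and Cenpb, which binds a sequence in centromeric repeats, at 0.00 ± 0.08 (adjusted p 0.978). In Pole4+/+ cells 2 of the 20 were called higher (10%, against 2.23% of all genes), and 5 were called lower in Pole4-/- cells with Trp53 (25.0%, against 2.7%).

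The second list held the anaphase-promoting complex, the ubiquitin ligase that the checkpoint restrains. Of its 19 genes, separase and securin included, 9 rose and 1 fell in the same comparison (47.4% and 5.26%, against 21.8% and 20.8% of all genes), at a median log2 fold change of 0.31. Espl1, encoding separase, which cuts cohesin, and Ube2c, the ubiquitin-conjugating partner of the complex, rose most (1.78 ± 0.21 and 1.59 ± 0.19, both with an adjusted p of 1.81e-05). Pttg1, encoding securin, the inhibitor of separase, gave -0.37 ± 0.15 (adjusted p 0.0549), and Anapc2, the cullin subunit, fell by 0.25 on the log2 scale (SE 0.09, adjusted p 0.0384). In Pole4+/+ cells 1 of the 19 was called higher (5.26%, against 2.23% of all genes).

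Since nearly all members moved together, their promoters were read for the motifs known from genes of the late cell cycle: the cell cycle homology region (CHR, TTTGAA), the CCAAT box (CCAAT) that NF-Y binds, and 4 E2F sites (TTTCCCGC, TTTCGCGC, TTTGCCGC and TTTGGCGC). Both strands were searched, from 250 bases before to 50 bases after the RefSeq start (GRCm38.p6), and 41 members had an entry. A CHR was present in 17 of the 41 members (41.5%), against 20.2% of all 27025 genes with an entry and 14.3% of the 10689 of them that were tested here. A CCAAT box was present in 28 (68.3%, against 41.1% and 43.0%), an E2F site in 4 (9.76%, against 2.6% and 4.71%), and CHR and CCAAT box together in 14 (34.1%, against 8.97% and 7.22%). Position set the CHR matches apart more than presence did: 15 of the 41 members (36.6%) had one starting within 50 bases of the start, against 2.95% of the tested genes.

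Stretches from 120 bases before to 30 after the start are shown for 4 members with both motifs that rose and for the pair that did not pass, with CHR and CCAAT matches in capitals (CCAAT reads ATTGG and TTTGAA reads TTCAAA on the other strand). The first 4 lines are Cenpa (chr5:30666766-30666915, plus strand), Cdca8 (chr4:124936888-124937037, minus), the checkpoint kinase Ttk (chr9:83834569-83834718, plus) and Cdc20 (chr4:118437314-118437463, minus), the activator of the anaphase-promoting complex that the checkpoint blocks. The last are Cenpc1 (chr5:86065554-86065703, minus) and Cenpt (chr8:105851979-105852128, minus).
Cenpa: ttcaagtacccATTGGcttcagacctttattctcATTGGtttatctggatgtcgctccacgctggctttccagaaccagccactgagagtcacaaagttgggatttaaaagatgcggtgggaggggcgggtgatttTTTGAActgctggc
Cdca8: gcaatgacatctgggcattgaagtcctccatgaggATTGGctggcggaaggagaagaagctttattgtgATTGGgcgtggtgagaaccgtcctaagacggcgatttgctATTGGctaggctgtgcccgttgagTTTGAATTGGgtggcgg
Ttk: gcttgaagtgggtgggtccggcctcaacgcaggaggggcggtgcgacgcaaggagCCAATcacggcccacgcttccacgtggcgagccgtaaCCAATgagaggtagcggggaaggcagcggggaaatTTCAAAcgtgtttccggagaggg
Cdc20: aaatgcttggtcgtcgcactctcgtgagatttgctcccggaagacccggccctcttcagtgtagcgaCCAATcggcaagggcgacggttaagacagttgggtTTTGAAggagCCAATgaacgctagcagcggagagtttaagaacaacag
Cenpc1: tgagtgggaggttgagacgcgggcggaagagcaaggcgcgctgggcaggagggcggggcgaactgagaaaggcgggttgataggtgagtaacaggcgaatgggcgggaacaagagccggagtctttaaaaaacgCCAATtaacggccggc
Cenpt: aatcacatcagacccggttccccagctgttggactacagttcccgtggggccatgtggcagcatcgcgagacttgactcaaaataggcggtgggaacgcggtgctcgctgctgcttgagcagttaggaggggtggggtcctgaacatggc

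In Cdca8 the CHR and a CCAAT box on the other strand share letters. The Cenpt window held none of the motifs, and the Cenpc1 window held a CCAAT box after the start. Among members with an entry, the 17 with a CHR had log2 fold changes of 0.70 to 1.92 on Trp53 loss in Pole4-/- cells, with a median of 1.48, and the 24 without ran from -0.07 to 1.99, with a median of 1.31. The ranges overlapped from 0.70 upward, which is the lowest value among the members with a CHR (Bub3). Zwint, Cenpc1 and Cenpt lay below it. Since the members with a CHR set this limit themselves, none of them could lie below it. Sgo1 and Trip13, which had no CHR match in the window, were at 1.99 and 1.88. Whether the response differs with a CHR was not tested. A match is a run of letters and not evidence of binding, and a CHR outside the window would not have been seen.

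**Figure D5:**
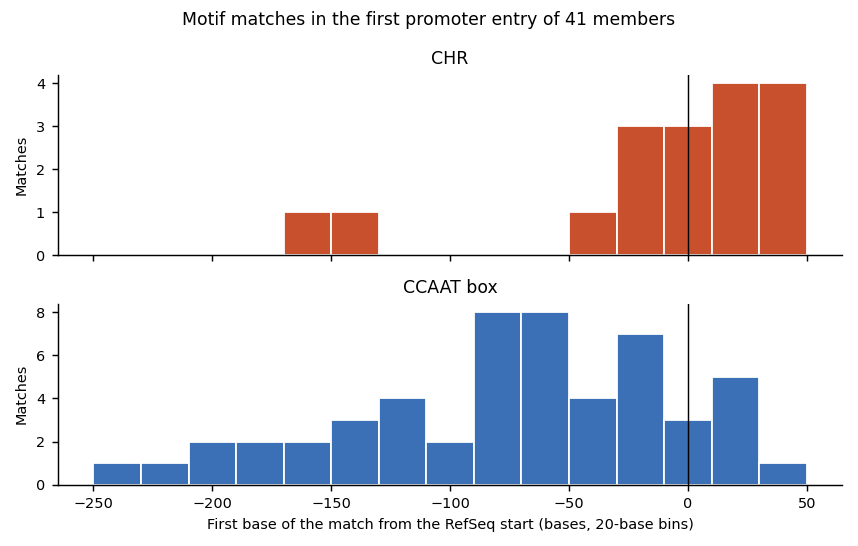
Number of CHR matches (top) and CCAAT matches (bottom) in the first promoter entry of 41 members, in 20-base bins by distance of their first base from the RefSeq start. Of 17 CHR matches 15 begin within 50 bases of the start, and 29 of 53 CCAAT matches begin in the 100 bases before it.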

How the data were processed

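RNA was measured in 18 libraries of primary mouse embryonic fibroblasts, 3 for each of 6 genotypes, made with a kit that does not keep the strand. The authors aligned the reads with STAR 2.5.2 and made the deposited table with RSEM 1.3.0, which gives an expected count per Ensembl gene of GRCm38; of these values 6.14% were not whole. These versions come from the submitters' processing notes, which also name DESeq2 1.10.1, where the methods of the study name a later version; none of its results was used. Library totals ran from 9535971 to 35319918, with a median of 22781543, and 51719 of 51912 gene identifiers matched the GENCODE annotation of GRCm38. The table held 0 columns of other samples.

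Here the counts were rounded and tested with edgeR 4.0.16 (R 4.3.3): low counts were removed with filterByExpr, which left 15710 genes, TMM factors were computed, and a robust quasi-likelihood F-test was run on 1 mean per genotype with 12 residual degrees of freedom. A gene was called at a Benjamini-Hochberg adjusted p under 0.05 over all genes tested. Errors of log2 fold changes are standard errors of this fit. An exact permutation test of 3 libraries against 3 cannot go below 0.1, so overlap of the libraries is stated instead. The labels number the replicates but do not state a pairing. In 2 of the 9 comparisons each same-numbered pair had r over 0.1, the limit chosen here for treating libraries as paired. These were Trp53-/- against Trp53+/- in Pole4+/+ cells (r 0.144 to 0.586) and Pole4 loss in Trp53+/- cells (r 0.261 to 0.497). Sex was read from Xist and 4 Y-linked genes. The fit was tested on simulated data, with 200 of 15710 genes changed 2-fold in Pole4-/- Trp53-/-. Against Pole4-/- Trp53+/+, edgeR called 97 of them, each in the right direction, and 6 other genes. DESeq2 called 119, each in the right direction, and 25 other genes. In a comparison left unchanged, Trp53 loss in Pole4+/+ cells, edgeR called 0 genes and DESeq2 5. In the real data 6699 genes were called in Pole4-/- cells, so the simulation does not match that setting. No pair of libraries in a group differed by as little as sampling noise.

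The members and the lists were chosen with earlier results of these data known. Per-library values were given for the member with the highest and the one with the lowest log2 fold change in each role group, for members called in Pole4+/+ cells, in a Pole4 comparison or in the interaction, up to the 5 with the lowest p in each; the companion lists were given as counts, with log2 fold changes of the 2 highest and the 2 lowest genes. Other members named (Cenpc1 in Pole4-/- cells, Cdca8 in Pole4+/+ cells, Sgo1 and Trip13 in the heterozygous comparisons, Cdc20 and Ttk for their promoters) were chosen after their values were seen. Alternatives were DESeq2 1.42.0, library totals as the scale, no filter, a replicate block, sex as a factor, only the libraries compared, and each library left out. The fit of female libraries was added after the data were seen. Promoters were taken from RefSeq (GRCm38.p6).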

Additional observations from a re-analysis of the deposited data

Results flagged for a closer look

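In 4 members the response to Trp53 loss differed between the Pole4 backgrounds by the test of the difference itself (edgeR quasi-likelihood, Benjamini-Hochberg adjusted p 0.0313 to 0.0486). The log2 response in Pole4-/- cells minus that in Pole4+/+ cells was 1.06 for Bub1b, which rose by 1.69 without Pole4 and 0.63 with it. It was 1.08 for Knl1 (1.55 and 0.47), 1.37 for Sgo1 (1.99 and 0.61) and 1.34 for Trip13 (1.88 and 0.54). Over the alternatives the adjusted p of these 4 ran from 6.39e-05 to 0.43, with a positive difference in each. No test for a single library far from its group was run, since groups of 3 were not tested; the first Pole4+/+ Trp53-/- library was set apart by its values alone.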

How the results depend on the processing

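The rise of the members with Trp53 loss in Pole4-/- cells held under every alternative run: 44 members were called by DESeq2, without a filter, with the replicate block and in only the libraries compared, 43 with sex as a factor, 42 with library totals as the scale, 30 in the female libraries, and 42 to 44 when 1 library was left out. The other counts above 0 depended on the processing, and the cause was not tested. For Trp53 loss in Pole4+/+ cells (12 called), DESeq2 called 26, library totals 2, and only the libraries compared and the female libraries 0, with 0 to 38 over left-out libraries. For Trp53+/- against Trp53+/+ in Pole4-/- cells (18 called), library totals gave 36, sex as a factor 4 and the female libraries 0, with 0 to 17 over left-out libraries. From Trp53+/- to Trp53-/- in Pole4-/- cells (40 called) library totals gave 11 and the female libraries 0, with 28 to 40 over left-out libraries; in Pole4+/+ cells (0 called) the range was 0 to 30. For Pole4 loss at intact Trp53 (25 called), library totals gave 39 and sex as a factor and the female libraries 0, with 1 to 31 over left-out libraries. For the interaction (4 called), DESeq2 gave 33, no filter 21, the replicate block 23, and library totals, sex as a factor, only the libraries compared and the female libraries 0, with 0 to 35 over left-out libraries.

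Library totals moved the median of all genes by -0.42 to 0.29 on the log2 scale. Of 414 recomputed values of 30 log2 fold changes of named members, 304 kept direction and side of the threshold, 109 lost the call and 1 changed sign: Cenpt in Pole4-/- cells, from -0.12 to 0.0063 over left-out libraries, with the positive value without the first Pole4-/- Trp53-/- library. Replicate numbers were shared by all genotypes. Over all 45 pairs of libraries with the same number, deviations had a median r of 0.098 (-0.259 to 0.586), against -0.06 for 90 pairs with other numbers, and 11 of 18 libraries correlated best with their own number, a hint from the data and not the design. In 7 of 9 comparisons at least 1 pair was at or below 0.1, and there the libraries were not treated as paired; in the 2 that were, the replicate block called 0 members, as did the fit without it. Elsewhere the replicate block gave 11, 15, 41 and 26 for the 12, 18, 40 and 25. The female fit holds 1 library of Pole4-/- Trp53+/+, assumed to vary like the other genotypes.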
